A study of Mus musculus with 22 samples.

Results

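The 10 genes described here encode receptors of the transmitter glutamate and proteins that bind them, and their levels were read in urogenital sinus epithelium, which forms the buds of the prostate in male fetuses. They are Gria1, Gria2, Gria3 and Gria4, Grik1, Grik2 and Grik3, Neto1 and Neto2, and Lrrc7. Each had exactly 1 probe set carrying its symbol alone, so all 10 were found among the 30102 genes with such a probe set. The list was selected on knockout minus control differences of these same arrays: Lrrc7 and Neto2 had been called higher in male knockouts, and Gria3 and Neto2 on the average of both sexes, and relatives were added by family. The knockout differences of all 10 genes are therefore given as a description, with no p-value, and tests of the members are kept for the comparison of the sexes.

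RNA from C57BL/6J fetuses at E16.75 was hybridised to 22 whole-transcript arrays. The 6 male KO and 5 female KO arrays came from fetuses with Cre at 1 Shh allele and floxed copies of both Sox9 alleles (ShhCre/+; Sox9fl/fl), and the 6 male control and 5 female control arrays from littermates that lacked Cre and had only 1 floxed copy of Sox9 (Shh+/+; Sox9+/fl). Every group thus carried at least 1 floxed Sox9 allele, and the controls, which the series text calls wild type, were not Sox9+/+. Cre acts where Shh is transcribed, which in the sinus is the epithelium, and all knockouts and no controls had the altered Shh allele, so that Sox9 loss and that allele cannot be told apart. The labels call the replicates biological without saying how many fetuses gave 1 array, and the p-values therefore cover only array-to-array spread, which may be partly technical.

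Glutamate receptors of the ionotropic kind are cation channels that open when glutamate binds. The Gria genes encode the subunits of AMPA receptors, which carry most fast excitatory signals between neurons, and Grik1, Grik2 and Grik3 encode subunits of kainate receptors. Neto1 and Neto2 are single-pass membrane proteins with CUB domains that join kainate receptors as auxiliary subunits and slow their gating, and Lrrc7, also called densin, is a scaffold protein with leucine-rich repeats and a PDZ domain at the postsynaptic density. These proteins are best known from brain.

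The values are the deposited log2 intensities, in which a difference of 1 is a doubling. Array medians over all transcript clusters lay between 5.10 and 5.27, with a mean of 5.17, and a gene was called near background where its mean over the 22 arrays was under that mean. The mean of Uty, Kdm5d and Eif2s3y, Y-linked genes that female cells lack, was 7.06 to 7.42 on the male arrays, against 4.44 to 4.58 on the female arrays, where it gives the level of a gene that is not there. The 23 background control probe sets averaged from 2.12 to 6.69, with a median of 3.20. Because background differs so much between probes, no gene's level is set against another's. Epithelial markers averaged 11.2 to 11.3 on every array, and all 10 of them lay above the array median. Sox9 read 8.26 ± 0.14 in male KO and 9.33 ± 0.21 in male control arrays (SD, n = 6 each), and 7.89 ± 0.09 in female KO and 8.89 ± 0.11 in female control arrays (n = 5 each). Shh averaged 10.77 in male KO, 11.22 in male control, 10.20 in female KO and 10.76 in female control arrays. One array stood apart: the 11 mesenchyme markers averaged 7.32 on male control 6, while no other male control array exceeded 6.40.

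Of the 10 genes, 6 lay near background: Gria1, Gria2, Gria4, Grik1, Grik2 and Neto1. The first 5 of these lay under the array median on all 22 arrays and did not pass the filter on dim probe sets, which asked for a value above the array median on at least 5 arrays. The filter left 19050 genes for testing, among them 5 members: Gria3, Grik3, Neto1, Neto2 and Lrrc7. Gria3 and Neto2 were above the array median on all 22 arrays, Grik3 on 20, Lrrc7 on 12 and Neto1 on 8. Lrrc7 passed through the male arrays alone, since it was above the median on all 12 of them and on 0 of the 10 female arrays.

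**Figure D1:**
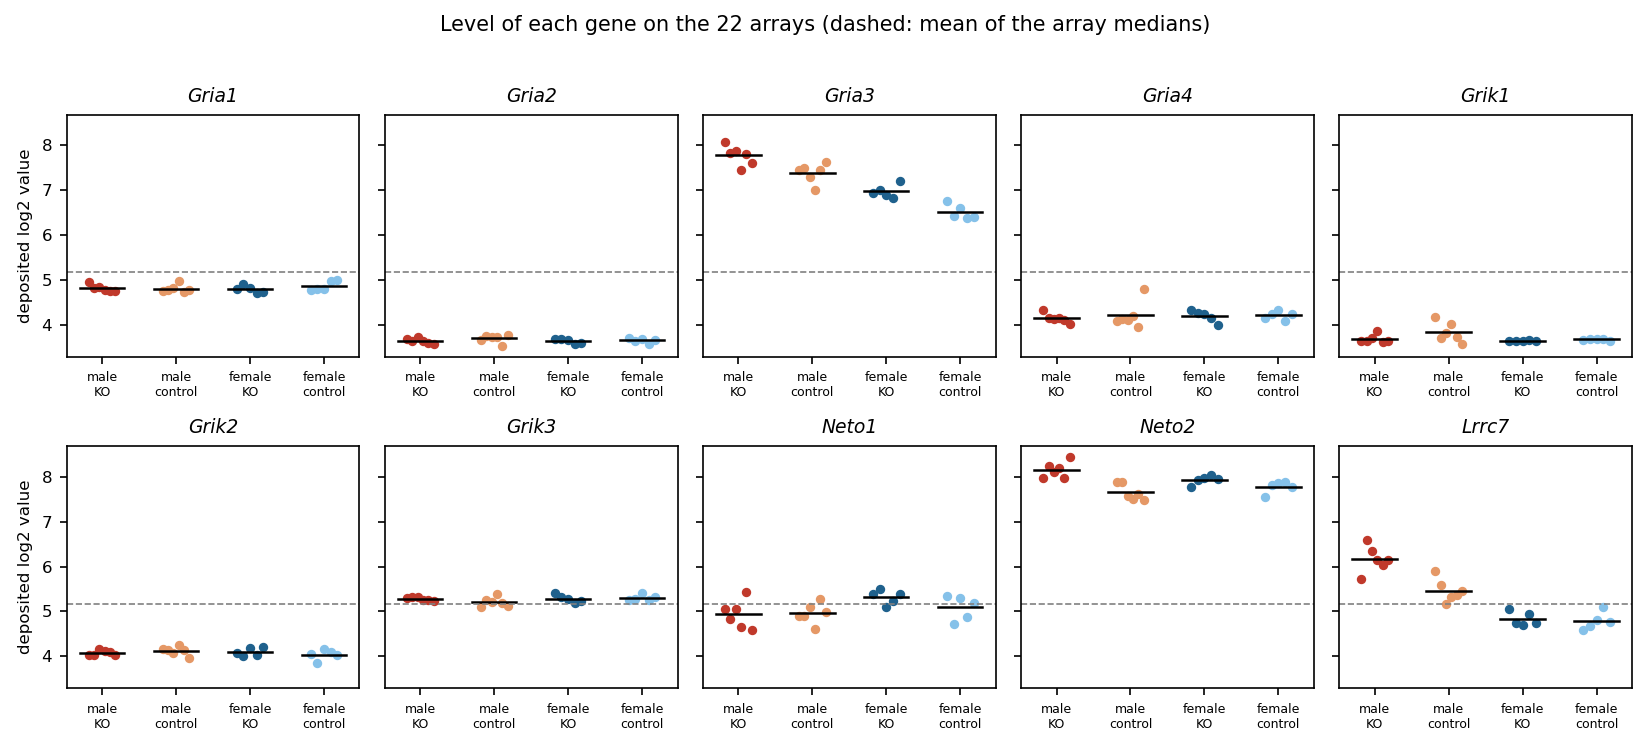
Deposited log2 value (vertical axis) of each of the 10 genes on every array in the 4 groups (points: arrays; black bars: group means; dashed line: mean of the array medians, 5.17). Gria3 and Neto2 lie above the line in every group, Lrrc7 lies above it on all male arrays but male control 3 (5.16) and below it on all female arrays, and Gria1, Gria2, Gria4, Grik1 and Grik2 stay below it on all arrays.

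Gria3 was the AMPA receptor subunit read above the array median, and it read higher in males than in females and higher in knockouts than in controls. It lies on chromosome X. In bulk tissue, fewer cells that express a gene and less of its RNA per cell cannot be told apart, here or for the genes below. Male KO arrays ran from 7.46 through a median of 7.82 to 8.08, and male control arrays from 7.00 through 7.45 to 7.63. Female KO arrays read 6.93, 7.01, 6.90, 6.82 and 7.20, against 6.75, 6.43, 6.60, 6.37 and 6.39 in female control arrays. All 5 female KO arrays were above every female control array, while the male KO and male control arrays overlapped. The group means were 7.78 ± 0.22 in male KO, 7.38 ± 0.22 in male control, 6.97 ± 0.14 in female KO and 6.51 ± 0.16 in female control arrays (SD, n = 6, 6, 5 and 5). In that order, male KO and male control arrays overlapped, male control and female KO arrays overlapped, and female KO and female control arrays did not.

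The knockout minus control difference of Gria3 was 0.39 (SE 0.10, 1.31-fold) in males and 0.46 (SE 0.11, 1.38-fold) in females on the log2 scale. The average over the sexes, one of the values that put Gria3 on the list, was 0.43 (SE 0.08). The male minus the female difference was -0.07 with an SE of 0.15, and it is given without a test.

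Sex was tested with the male minus female difference averaged over the genotypes. With as many knockout as control arrays within each sex, the estimate of this contrast is orthogonal to the knockout contrasts that chose the genes. Its SE rests on the same array-to-array spread that entered those calls, so its p-value is not wholly independent of the choice. Gria3 was higher in males by 0.84 (SE 0.08, 1.79-fold; limma adjusted p = 2.68e-08 over all genes tested). The male arrays lay above all female arrays of their own genotype, and the difference was 0.80 (SE 0.11) between the knockouts and 0.88 (SE 0.11) between the controls. At this size it exceeded the knockout difference of either sex.

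Lrrc7 was higher in males and, among males, higher in the knockouts. Male KO arrays ran from 5.73 through a median of 6.14 to 6.59, and male control arrays from 5.16 through 5.40 to 5.90. The other male KO arrays lay above all male control arrays, but male KO 1, at 5.73, lay below male control 1, at 5.90. Female KO arrays read 5.06, 4.75, 4.69, 4.94 and 4.74, against 4.60, 4.67, 4.80, 5.10 and 4.77 in female control arrays. These female values were all under the medians of their arrays, and the female groups overlapped.

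The group means of Lrrc7 were 6.16 ± 0.29 in male KO and 5.46 ± 0.26 in male control arrays (SD, n = 6 each), and 4.84 ± 0.16 in female KO and 4.79 ± 0.19 in female control arrays (n = 5 each). The knockout minus control difference was 0.70 (SE 0.13, 1.62-fold) in males, the value that put Lrrc7 on the list, and 0.05 (SE 0.14, 1.04-fold) in females. The male minus the female difference was 0.65 (SE 0.19). It is given without a test, because the male difference in it chose the gene. Both female means lay under 5.17, the mean of the array medians below which a gene was called near background. A female difference at such a level could be missed, so these values do not show the knockout difference to be limited to males.

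Lrrc7 was also the gene of the list with the widest sex difference. Averaged over the genotypes it was higher in males by 1.00 (SE 0.09; limma adjusted p = 3.70e-08). Since it passed the filter through its male values, the fit of all genes without the filter was read too, and the adjusted p there was 4.62e-08. All male arrays lay above all female arrays of their genotype. The male minus female difference was 1.33 (SE 0.13) between the knockouts and 0.68 (SE 0.13) between the controls. Both were read against female means near background, which limits what their sizes can show.

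Neto2 was above the array median on every array, read higher in male KO than in male control arrays, and did not pass the test between the sexes. Male KO arrays ran from 7.97 through a median of 8.15 to 8.44, and male control arrays from 7.49 through 7.60 to 7.89, so that all 6 male KO arrays were above every male control array. Female KO arrays read 7.77, 7.93, 7.97, 8.05 and 7.96, against 7.54, 7.81, 7.85, 7.89 and 7.77 in female control arrays. The female groups overlapped. The knockout minus control difference was 0.49 (SE 0.09, 1.41-fold) in males and 0.16 (SE 0.09, 1.12-fold) in females, and 0.33 (SE 0.06) on the average. The male minus the female difference was 0.33 (SE 0.13), given without a test for the same reason as for Lrrc7.

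For Neto2 the sex difference averaged over the genotypes was 0.05 (SE 0.06) and did not pass the test (limma adjusted p = 0.662). The group means, 8.15 ± 0.18 in male KO, 7.66 ± 0.18 in male control, 7.93 ± 0.10 in female KO and 7.77 ± 0.14 in female control arrays (SD, n = 6, 6, 5 and 5), were ordered male KO, female KO, female control, male control. The male minus female difference was 0.22 (SE 0.09) between the knockouts and -0.12 (SE 0.09) between the controls. Neighbouring groups in that order overlapped.

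Because Lrrc7 and Neto2 differed by genotype in males, the sequences around their annotated starts are shown, as windows of 300 bases, 5′ to 3′ on the strand of the gene. They are credited to RefSeq on GRCm38.p6, which had such windows for 6 of the 10 genes, 7 windows in all, and for Neto2 the start richer in CpG is given. The Lrrc7 window lies at chr3:158561712-158562011 on the minus strand and holds 12 CpG dinucleotides, and the Neto2 window at chr8:85700875-85701174 on the minus strand and holds 36.
Lrrc7: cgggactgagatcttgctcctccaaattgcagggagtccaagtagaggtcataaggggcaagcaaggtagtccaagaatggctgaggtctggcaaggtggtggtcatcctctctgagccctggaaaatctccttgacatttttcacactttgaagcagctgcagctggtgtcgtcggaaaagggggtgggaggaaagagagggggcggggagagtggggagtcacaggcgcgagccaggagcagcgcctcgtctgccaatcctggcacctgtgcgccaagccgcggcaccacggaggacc
Neto2: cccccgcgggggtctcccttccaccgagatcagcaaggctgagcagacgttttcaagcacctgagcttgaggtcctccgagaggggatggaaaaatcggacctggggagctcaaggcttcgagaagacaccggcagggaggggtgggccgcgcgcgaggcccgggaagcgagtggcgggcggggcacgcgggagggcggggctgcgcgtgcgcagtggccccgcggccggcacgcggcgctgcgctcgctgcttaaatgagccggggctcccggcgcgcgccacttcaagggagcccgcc
Both windows were searched on both strands for the core letters of SOX factor motifs, ACAAT and ACAAAG, and for the letters AGAACA, the core of steroid receptor motifs. Any match would stand in capitals, and there was none in these windows or in the 7 windows of the list. Of all 32851 promoter windows of this length, 31% held ACAAT, 18.7% held ACAAAG and 19% held AGAACA. The result says only that these letters are not in these windows.

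The remaining AMPA receptor subunits gave no level to compare. Gria1, a subunit whose entry into synapses is known from plasticity, averaged 4.82 ± 0.08 in male KO and 4.80 ± 0.09 in male control arrays, and 4.80 ± 0.07 in female KO and 4.86 ± 0.11 in female control arrays (SD, n = 6, 6, 5 and 5). Gria2, the subunit that keeps AMPA receptors tight to calcium, averaged 3.64 in male KO, 3.69 in male control, 3.64 in female KO and 3.65 in female control arrays. Gria4 averaged 4.15, 4.21, 4.19 and 4.21 in the same groups. Its highest array was male control 6, at 4.79, the array with raised mesenchyme markers, and the other male controls read 3.96 to 4.19. Without male control 6 no group of Gria4 exceeded 4.34 on any array.

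Of Grik1, Grik2 and Grik3, only Grik3 passed the filter, at a level close to the array median. It averaged 5.28 ± 0.04 in male KO and 5.21 ± 0.10 in male control arrays, and 5.29 ± 0.09 in female KO and 5.31 ± 0.07 in female control arrays (SD, n = 6, 6, 5 and 5). The knockout minus control differences were 0.07 (SE 0.05) in males and -0.02 (SE 0.05) in females, and the male minus female difference of -0.05 did not pass the test (SE 0.04, limma adjusted p = 0.398). Grik1 averaged 3.68 in male KO, 3.83 in male control, 3.64 in female KO and 3.67 in female control arrays, with male control arrays spread from 3.56 to 4.18. Grik2 averaged 4.08, 4.12, 4.10 and 4.04 in the same groups.

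Neto1, the relative of Neto2, lay near background and varied widely. Male KO arrays ran from 4.60 through a median of 4.94 to 5.43, and male control arrays from 4.61 through 4.95 to 5.28. Female KO arrays read 5.38, 5.51, 5.11, 5.22 and 5.40, against 5.35, 4.73, 5.30, 4.88 and 5.20 in female control arrays. All groups overlapped. The knockout minus control differences were -0.03 (SE 0.13) in males and 0.23 (SE 0.15) in females. Neto1 read lower in males by 0.26 (SE 0.10), which did not pass the test (limma adjusted p = 0.0909). Without male KO 5 the adjusted p was 0.023 and without female control 2 it was 0.0422, with differences of -0.31 and -0.30.

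Counted over the 5 members that passed the filter, 2 were called at an adjusted p of 0.05 in males, where 0.199% of all tested genes were called and 0.0210% were called higher, but that comparison had chosen them. In females 0 of 5 were called, where 0.0315% of all genes were, and on the average of the sexes 2 of 5, Gria3 and Neto2, where 0.247% were called and 0.0472% were called higher, again the comparison that chose them. In a fit of the male groups alone neither Lrrc7 nor Neto2 was called. Nothing is read from these counts. In the sex comparison 2 of 5, Gria3 and Lrrc7, were called, both higher in males, where 13.6% of all genes were called with 6.53% higher and 7.04% lower in males; the count of 2 is no support in itself, since Lrrc7 passed the filter through its male arrays. The male minus the female knockout difference was called for 0.00525% of all tested genes, and no call of a member is given for it. Of the 5 members that passed the filter, the KO and control arrays stood apart for 1 in males (Neto2, beside 0.420% of tested genes) and 1 in females (Gria3, beside 1.39%). Knockout differences had chosen both genes, so nothing is read from these counts either. The sexes stood apart for Gria3 and Lrrc7 among the knockouts (5.82% of tested genes) and among the controls (5.64%). Since Lrrc7 is among the tested genes only through its male arrays, nothing is read from this count.

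**Figure D2:**
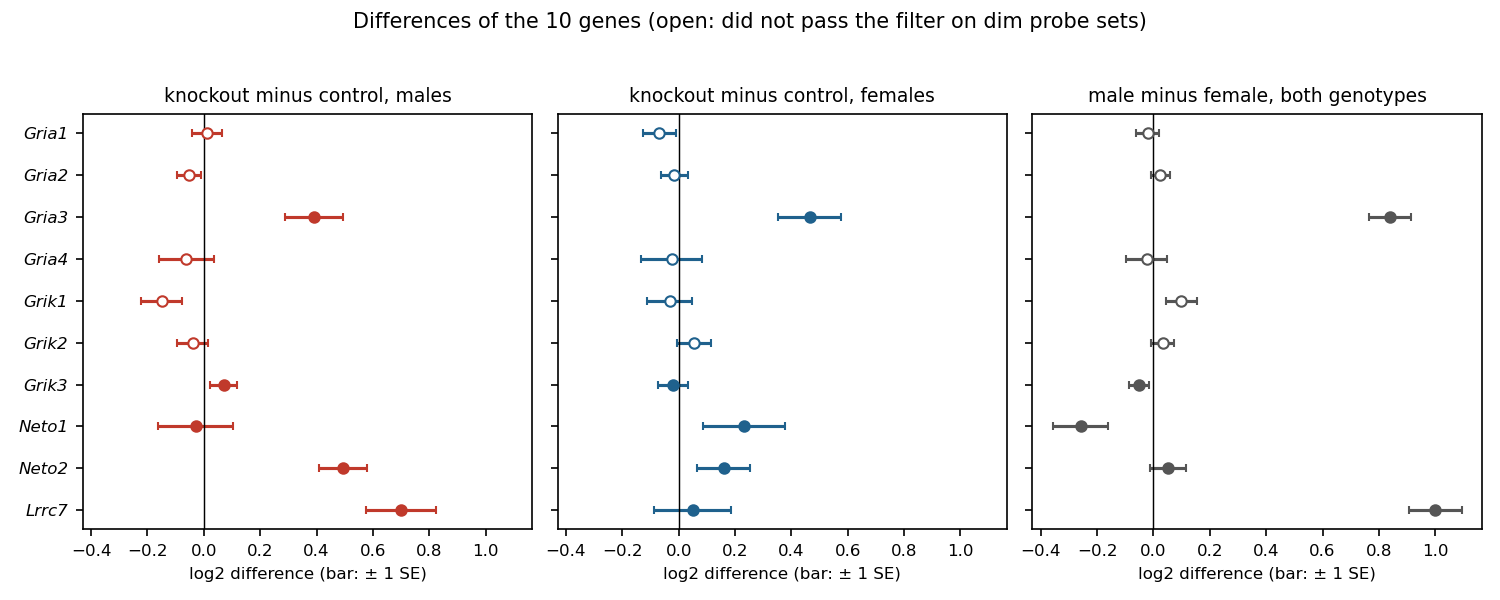
Log2 difference (horizontal axis, bars ± 1 SE) of the 10 genes for knockout minus control in males, knockout minus control in females, and male minus female averaged over the genotypes; open points did not pass the filter on dim probe sets. Gria3 lies right of 0 in all 3 panels, Lrrc7 in males and between the sexes, and Neto2 most clearly in males at 0.49.

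**Figure D3:**
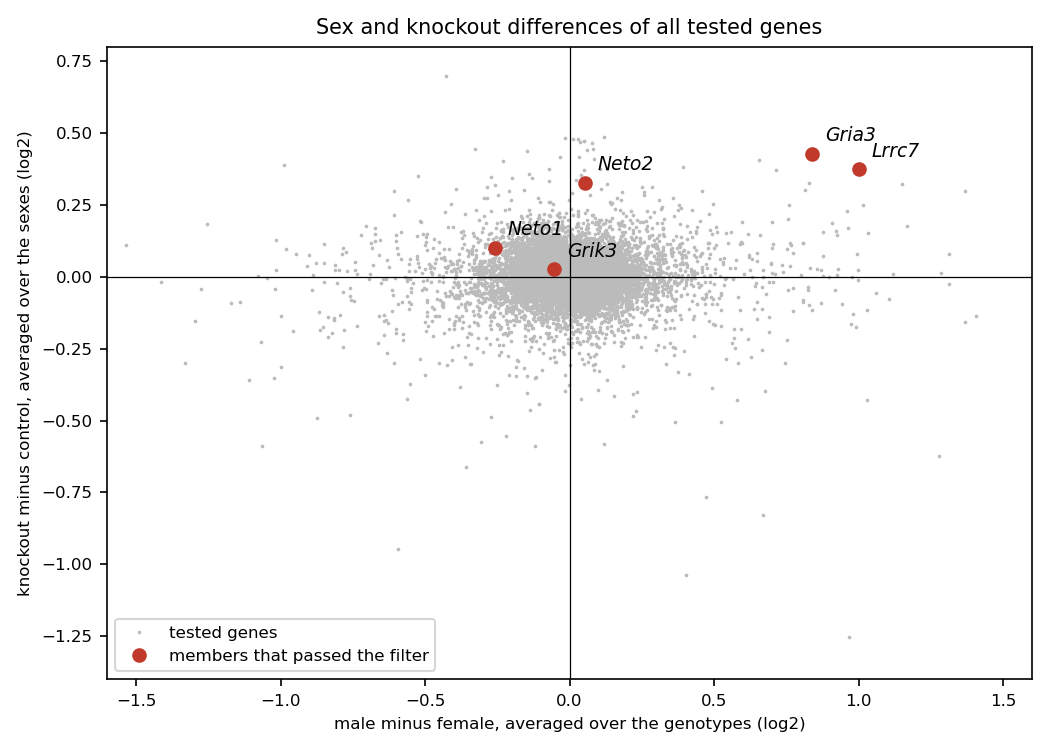
Male minus female difference (horizontal axis, log2) against knockout minus control difference averaged over the sexes (vertical axis, log2) for the tested genes (grey points; 25 genes beyond ±1.6 on the horizontal axis are not drawn), with the 5 members that passed the filter in red. Gria3 and Lrrc7 lie upper right, at 0.84 and 1.00 for sex, Neto2 lies above 0 near the middle, and Grik3 and Neto1 lie within the bulk of the genes.

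The genes whose values over the 22 arrays were most like those of Lrrc7, by Pearson's r, were Ptgdr (0.91), Mast4 (0.89), Ninl (0.88) and Spata6 (0.88). Ptgdr, a prostaglandin D2 receptor, averaged 6.07 in male KO, 5.45 in male control, 4.38 in female KO and 4.40 in female control arrays, the same order of male groups as Lrrc7. For Gria3 they were Osbpl6, Sgms2, Tmem50b (each 0.92) and Agr2 (0.91), and all 4 averaged highest in male KO and lowest in female control arrays. Agr2, a protein disulfide isomerase of secretory epithelia, averaged 8.91 in male KO, 8.67 in male control, 8.16 in female KO and 7.79 in female control arrays. For Neto2 they were Cux1 (0.73), Kidins220, Kat6b and Ptger3 (each 0.69). Ptger3, a prostaglandin E2 receptor, averaged 6.92 in male KO, 6.50 in male control, 6.95 in female KO and 6.61 in female control arrays.

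These likenesses are descriptions over arrays that share group, sex and array processing. Because the genes were picked by r over these arrays, a shared order of the groups follows in part from the choice. With the group means removed, r of the 4 genes named was 0.24 to 0.45 for Lrrc7. It was 0.33 to 0.65 for Gria3 and 0.36 to 0.73 for Neto2. After the group means were removed, the 4 most similar genes were others for Lrrc7 and Gria3, and 1 of the 4, Kidins220, stayed for Neto2. Among the members themselves, Gria3 and Lrrc7 had r = 0.81 over the 22 arrays and -0.10 with the group means removed. Lrrc7 and Neto2 had r = 0.53 and 0.52, and Gria3 and Neto1 -0.14 and 0.61. No p-value is given for these values.

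Other genes of glutamate signalling were counted in 5 lists with 73 genes, of which 49 passed the filter. In the knockout comparisons 0 of 49 were called by limma in males, in females or on the average, where 0.199%, 0.0315% and 0.247% of all genes were. An unadjusted p under 0.05 was seen for 4, 1 and 6 of the 49, beside 1195, 1041 and 1369 of all 19050 tested genes. The median difference of the 49 was 0.01 in males and 0.00 in females, beside 0.01 and 0.01 over all genes. In males the smallest p-values of the 49 belonged to scaffold genes: Shank2, a postsynaptic scaffold, stood at -0.33 in males (SE 0.09, adjusted p = 0.329), and Grip1, a PDZ protein that binds AMPA receptor tails, at -0.17 (SE 0.05, adjusted p = 0.33). Slc1a3, a glutamate transporter, had the smallest p-value of the 49 in females, at 0.17 (SE 0.08, adjusted p = 0.904), stood at 0.14 (SE 0.08) in males, and was not called.

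In the sex comparison 11 of the 49 (22.4%) were called, 6 higher and 5 lower in males, beside 13.6% of all genes. Slc17a8, the vesicular glutamate transporter VGLUT3, was higher in males by 0.93 (SE 0.09, limma adjusted p = 9.91e-08), with means of 6.27 in male KO, 6.16 in male control, 5.26 in female KO and 5.32 in female control arrays. Slc1a5, a carrier of neutral amino acids that takes up glutamine, was higher in males by 0.41 (SE 0.05, adjusted p = 7.21e-07). Grik4, a kainate subunit of high affinity, was higher by 0.26 (SE 0.04, adjusted p = 0.000134), the 1 call among 7 other ionotropic subunits. Grip1 was lower in males by 0.36 (SE 0.04, adjusted p = 9.79e-08). Of 23 scaffold genes, Camk2b, Dlg3 and Lrrc1 were higher in males by 0.21, 0.16 and 0.15 and Dlgap4 lower by 0.11 beside Grip1, and of 11 auxiliary AMPA genes Gsg1l, Shisa7 and Nptx1 were lower in males (-0.17, -0.17 and -0.19). Of 3 metabotropic receptors 0 were called in any comparison. In the sex comparison 0 of these 3 had an unadjusted p under 0.05, beside 4723 of all 19050 tested genes.

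Markers of other cell types were read on each array beside these genes. The mean of 11 neuron markers ran from 5.86 to 6.05 in male KO, 5.92 to 6.09 in male control, 5.83 to 6.01 in female KO and 5.89 to 6.01 in female control arrays, with 8 to 10 of the 11 above the array median. The neuronal RNA-binding genes Elavl3 and Elavl4 lay near background, at 5.00 and 4.96. Of 9 tested neuron markers 0 were called in the knockout comparisons, where 0.0315% to 0.247% of all genes were. Between the sexes 2 of the 9 were called higher and 1 lower in males, beside 6.53% and 7.04% of all genes. Th and Stmn2 were higher in males by 0.40 (limma adjusted p = 6.34e-05) and 0.29 (adjusted p = 0.00392). Snap25 was lower in males by 0.26 (adjusted p = 0.0362), so single neuron markers moved with sex in both directions. Of 9 tested mesenchyme markers, Lum was called higher in males by 0.40 and Dcn lower by 0.32 (limma adjusted p = 0.00434 and 0.00224). Of 10 epithelium markers 2 were called higher and 3 lower in males. The part of the cells with these markers in the sex differences of Gria3 and Lrrc7 was not tested.

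The mean of 6 glia markers ran from 5.67 to 5.91 in male KO, 5.71 to 5.93 in male control, 5.69 to 5.88 in female KO and 5.76 to 5.84 in female control arrays. Of these, S100b, Fabp7 and Cdh19 were under the array median on all arrays. Sox10, Erbb3 and Foxd3, at means of 6.43, 9.79 and 6.48, were above it on all arrays. Erbb3 raises the mean of the 6 most, and which cells these genes came from was not tested. The mean of 5 neuroendocrine markers ran from 5.61 to 5.89, 5.57 to 5.91, 5.71 to 5.96 and 5.65 to 5.92 in the same groups. Of 3 tested glia markers 0 were called in a knockout or sex comparison. Of 4 tested neuroendocrine markers Scg2 alone was called, lower in males by 0.24 (limma adjusted p = 0.00268). Over all genes 13.6% were called in the sex comparison and 0.0315% to 0.247% in the knockout comparisons. Immune markers read higher on most female KO arrays than on the female control arrays. The mean of 7 such markers was 6.45, 6.32, 6.00, 6.23 and 6.20 in female KO arrays, against 6.10, 6.12, 6.14, 6.07 and 6.13 in female control arrays, with 6.02 to 6.13 in male KO and 6.02 to 6.32 in male control arrays. Of 6 tested immune markers 0 were called in females, where 0.0315% of all genes were, with a median knockout difference of 0.18 and all 6 above 0. These 6 (Tyrobp, C1qa, C1qb, Csf1r, Cd68 and Aif1) were above the array median on all 22 arrays. Ptprc, which marks all leukocytes, was under it on all 22. Female KO 3 had the lowest immune mean of the female arrays, 6.00. The part of immune cells in the female knockout difference of Gria3 was not tested.

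Without male control 6, the male knockout differences were 0.70 for Lrrc7, 0.46 for Neto2 and 0.44 for Gria3, and the sex differences 1.00 for Lrrc7 and 0.82 for Gria3.

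**Figure D4:**
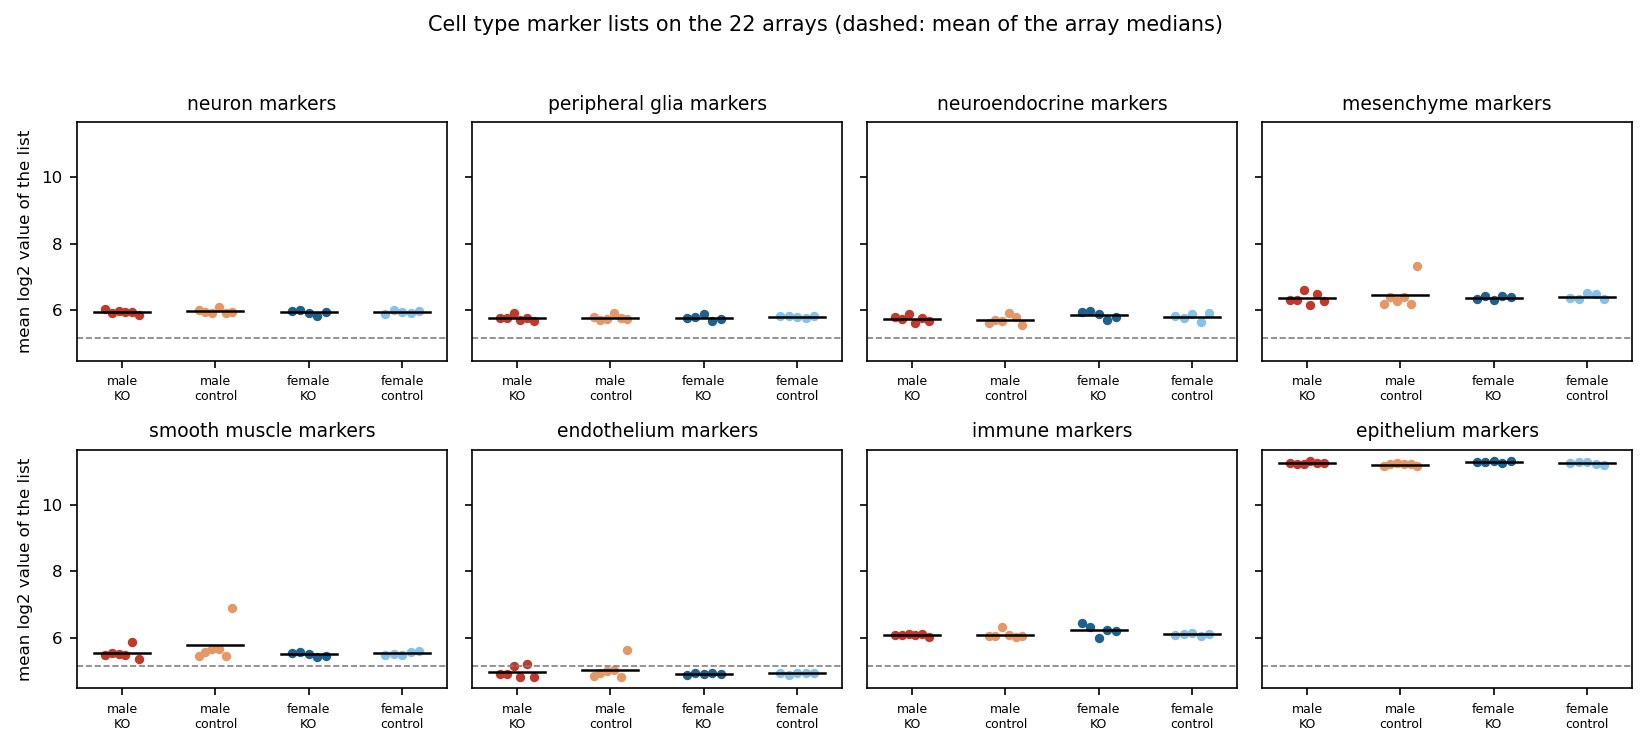
Mean deposited log2 value (vertical axis) of the genes of each marker list on every array in the 4 groups (points: arrays; black bars: group means; dashed line: mean of the array medians). The ranges of the neuron, glia and neuroendocrine lists overlap between all groups, 4 of 5 female KO arrays lie above every female control array for the immune list, and male control 6 stands apart in mesenchyme, smooth muscle and endothelium.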

How the data were processed

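Per the labels' protocols, biotin-labelled total RNA of the sinus epithelium was hybridised to Affymetrix WT arrays. The deposited table gives a log2 value for each of 72688 probe sets (65770 transcript clusters) and array. The log2 scale was inferred from the deposited range of 1.59 to 14.23. How the authors corrected background, normalized and summarized them, and on which genome build, is not stated in the labels. Values were used as deposited.

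Probe sets were named from the platform annotation, with symbols brought up to date through gene identifiers. Probe sets with 1 symbol that lay above the array median (the 50th percentile) on at least 5 arrays were kept, and the one of highest mean stood for its gene, giving 19050 genes. All 22 arrays entered 1 linear model of 4 group means (limma 3.58.1, R 4.3.3; 18 residual and 4.34 prior degrees of freedom). Adjusted p-values are Benjamini-Hochberg over all genes of a comparison, two-sided, with a threshold of 0.05. Differences of genes that did not pass the filter come from a fit of all 30102 genes. No covariate was fitted, as the labels give no litter, batch or scan date. Precision is set by how many arrays there were, and the median SE was 0.065 in males and 0.071 in females. No pair of arrays shared more than 0.0334% of values, and each array was kept as its own sample. The program was tested on simulated data.

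The members and lists were chosen with earlier results of these data known. Beside marker genes, the Y-linked genes and Gpr157, which were named after their values were seen, named genes are the members, Sox9 and Shh, called genes of the 5 lists and up to 3 of smallest p in each list, and the 4 most similar genes of Lrrc7, Neto2 and Gria3. Alternatives were quantile normalization, median centring, no filter, averaging the probe sets of a gene, a stricter filter (75th percentile), trended and robust eBayes, a fit of the compared groups alone, the replicate number as a block, and leaving out each array. Plots used matplotlib 3.10.9 (Python 3.11.15).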

Additional observations from a re-analysis of the deposited data

Results flagged for a closer look

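In each of the 40 combinations of gene and group, an array was marked where its gap to the nearest other array of its group exceeded Dixon's critical value, which chance gives for about 1 in 20. There were 3 such arrays, all in genes under the array median. Gria4 read 4.79 in male control 6, the array with raised mesenchyme markers, while the remaining male control arrays read 3.96 to 4.19. Gria1 read 4.98 in male control 4, with 4.73 to 4.81 on the remaining male control arrays. Grik1 read 3.87 in male KO 4, against 3.61 to 3.70 in the other male KO arrays.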

How the results depend on the processing

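The sex differences of Gria3 (0.81 to 0.88) and Lrrc7 (0.96 to 1.04) kept their direction and call under all alternatives that gave a value for them, leaving out each array included; the filter at the 75th percentile did not keep Lrrc7, Grik3 or Neto1. The knockout differences of Gria3, Neto2 and Lrrc7 in males kept their sign throughout (0.31 to 0.46, 0.44 to 0.54 and 0.61 to 0.79). Calls on these differences carry no weight, because they chose the genes, and they moved: on the average of the sexes Neto2 was not called after median centring, and Lrrc7 was called, among the settings tried, only without male control 1 or without male KO 1. Lrrc7 in females was 0.05, and between -0.01 and 0.13 when single arrays were left out. All genes called in males numbered 38, and 20 with only the male arrays, with 27 to 49 when single arrays were left out. All genes called in females numbered 6, and 3 after median centring and 3 with only the female arrays, with 2 to 8 when single arrays were left out: 2 without female control 3, female control 5 or female KO 4, and 3 without female control 1, female KO 1, female KO 3 or male KO 3. For the male minus the female knockout difference 1 gene, Gpr157, was called (chosen after its values were seen), against 0 with quantile normalization, median centring, no filter or trend and robust options, 2 with the replicate block, and 0 to 2 when single arrays were left out. Same-numbered KO and control arrays had deviations correlated between -0.21 and 0.13, over 0.1 in 2 of 11 pairs, so the numbers were not taken to pair arrays; with the replicate block 30 genes were called in males, 4 in females and 49 on the average, and no call among the members changed. The filter and the arrays' number limit what can be said of dim genes: the 5 members that did not pass could not be told from background.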
